A study of Mus musculus with 17 samples.

Results

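The transcription factors *Gata6*, *Gata4*, *Sox17*, *Sox7* and *Hnf4a* and the receptor gene *Pdgfra* specify or mark primitive endoderm, and their RNA was followed here in mouse ES cells with and without *Nanog*. These 6 genes were taken by name from a table of 15470 rows, and all 6 had enough reads to be tested. The study grew *Nanog* KO cells (the BT12 line) and the parental control cells (E14Tg2a), kept over inactive embryonic fibroblast feeders in KOSR medium with LIF and 2i, the pair of inhibitors CHIR-99021 (against GSK3) and PD0325901 (against MEK). Naive cells were taken at 0 h, and cells that had been moved to serum medium at 12 h and 24 h. Each group has 3 libraries, apart from control cells at 0 h with 2 (replicates 2 and 3, replicate 1 not being analysed here). Each genotype is represented by a single cell line, so the deletion and any other difference between the lines cannot be told apart. Nothing in the labels gives replicates as separate cultures, and p-values here reflect library-to-library spread that may be technical.

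Primitive endoderm is the extraembryonic layer that parts from the epiblast inside the blastocyst and later forms the visceral and parietal endoderm of the yolk sac. In the mouse embryo NANOG and GATA6 are at first found in the same cells and then oppose each other, and FGF signalling through MEK, the kinase that 2i blocks, tips cells towards GATA6. PDGFRA appears early under GATA6, SOX17 and GATA4 follow, SOX7 comes later, and HNF4A is best known as a regulator of the visceral endoderm.

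The libraries held 8775372 to 33766086 reads assigned to genes, so that 3 reads, the limit that a count of 0 allows, correspond to between 0.326 and 0.0851 CPM (read counts relative to the TMM-scaled library size). This limit covers counting error only. *Nanog* itself was at 12.5 to 34.6 CPM in the 9 KO libraries and at 271 to 412 CPM in the 8 control libraries, with no overlap. The members had 86 to 1364 reads in each KO library but 13 to 163 in each control library, so the control levels below are the less precise ones. These are bulk samples, in which more cells of a type and more RNA per cell cannot be told apart.

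On GRCm38, *Gata4* (ENSMUSG00000021944) lies on chromosome 14 at 63198922 to 63271692 and *Sox7* (ENSMUSG00000063060) on the same chromosome at 63943673 to 63950732. *Sox17* (ENSMUSG00000025902) lies on chromosome 1 at 4490931 to 4497354, *Hnf4a* (ENSMUSG00000017950) on chromosome 2 at 163506808 to 163572910 and *Pdgfra* (ENSMUSG00000029231) on chromosome 5 at 75152292 to 75198215. *Gata6* is ENSMUSG00000005836. All are protein-coding genes, and the values count reads over their exons and UTRs without separating isoforms. RefSeq promoter windows (GRCm38.p6, 250 bases before to 50 after a start site) were matched for 2 of the 6 members and are shown for that reason. They were not picked by their change with time. These members had the largest (*Pdgfra*) and the smallest (*Hnf4a*, not called) change over 24 h in KO cells. *Hnf4a* has a distal and a proximal promoter, at chr2:163506607-163506906 and chr2:163546905-163547204, and *Pdgfra* starts at chr5:75152001-75152300, all on the plus strand. Capitals mark matches on either strand. The motif searched for GATA factors was AGATAA and the motif for SOX factors was ACAAT, and no match overlapped another.
Hnf4a, distal promoter: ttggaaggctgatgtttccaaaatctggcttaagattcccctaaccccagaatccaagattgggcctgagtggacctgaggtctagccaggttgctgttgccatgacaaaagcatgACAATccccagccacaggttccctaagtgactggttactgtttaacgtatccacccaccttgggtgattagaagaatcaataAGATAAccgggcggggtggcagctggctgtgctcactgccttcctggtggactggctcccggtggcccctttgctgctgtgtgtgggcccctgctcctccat
Hnf4a, proximal promoter: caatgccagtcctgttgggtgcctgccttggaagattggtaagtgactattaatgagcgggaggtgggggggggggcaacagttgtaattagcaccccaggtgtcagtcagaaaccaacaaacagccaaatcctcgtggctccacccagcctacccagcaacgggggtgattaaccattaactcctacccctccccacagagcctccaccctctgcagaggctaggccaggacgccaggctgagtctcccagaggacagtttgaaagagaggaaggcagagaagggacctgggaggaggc
Pdgfra: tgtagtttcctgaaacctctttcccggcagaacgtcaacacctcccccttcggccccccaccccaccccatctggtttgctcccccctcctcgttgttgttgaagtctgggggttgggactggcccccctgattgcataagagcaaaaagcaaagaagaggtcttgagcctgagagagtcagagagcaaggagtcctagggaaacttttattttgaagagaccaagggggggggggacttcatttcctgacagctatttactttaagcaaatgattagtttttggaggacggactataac
The distal *Hnf4a* window held 1 match to each motif on the plus strand, and the proximal *Hnf4a* window and the *Pdgfra* window had no match to either. Of 32851 promoter windows of the same length, 11.2% held the GATA motif and 31.0% the SOX motif. A match is a description of the letters and not a binding site.

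The level of all 6 genes was higher in *Nanog* KO cells than in the control, already at 0 h before serum was added and again at 12 h and 24 h. In limma's test (called at an adjusted p under 0.05 over all genes) 25.4% of the 15117 genes tested were called higher in KO cells at 0 h, 24.6% at 12 h and 23.4% at 24 h, against 6 of 6 members at each time. The shares called lower were 26.9%, 25.2% and 24.5%. For each member, every KO library was above every control library over all times, which held for 6.89% of tested genes, while 7.53% had every KO library below every control library. In the KO library lowest for it, each member was still 2.19 to 9.16 times as high as in the control library highest for it. A ratio of at least 2, a limit chosen after the values were seen, was reached by 0.569% of tested genes. The median log2 difference of the members was 2.31 at 0 h, 2.48 at 12 h and 3.15 at 24 h, beside -0.01, 0.00 and -0.01 over all genes tested.

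**Figure D1:**
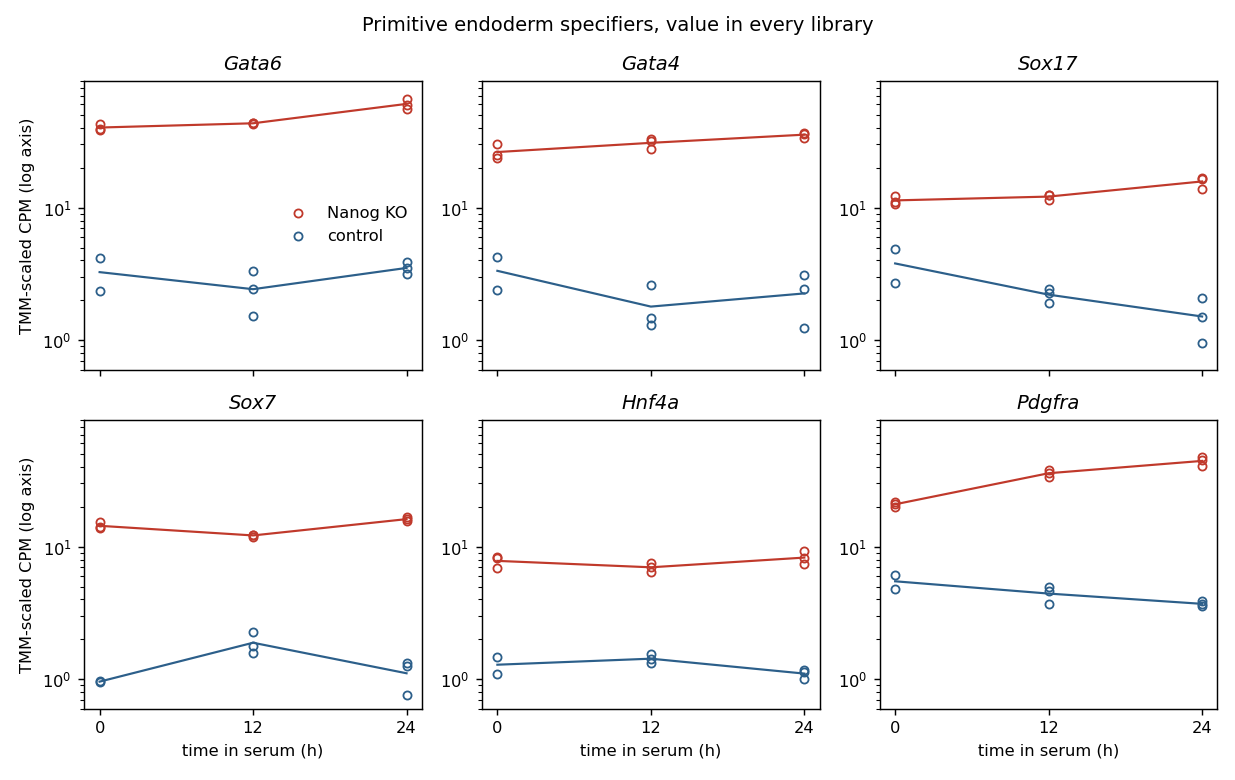
Level of each member in CPM (log axis) in every library, by genotype and hours in serum; points are libraries and lines join group means. For all 6 genes the KO and control libraries do not overlap, with *Gata6* in KO cells between 38.4 and 66.0 CPM and in control cells between 1.52 and 4.19 CPM.

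*Gata6*, the GATA factor that acts first in primitive endoderm and can by itself turn ES cells into that lineage, was the most abundant member in KO cells. In KO libraries it was at 43.0, 38.4 and 39.1 CPM at 0 h, at 43.4, 43.8 and 42.5 CPM at 12 h and at 59.9, 66.0 and 55.8 CPM at 24 h. In control libraries it was at 2.34 and 4.19 CPM at 0 h, at 3.32, 2.45 and 1.52 CPM at 12 h and at 3.50, 3.88 and 3.16 CPM at 24 h. The KO libraries at 24 h were above all others, those at 0 h and 12 h overlapped, and control libraries of different times overlapped. The log2 difference was 3.30 ± 0.18 (SE) at 0 h (adjusted p = 3.0e-11), 3.72 ± 0.16 at 12 h and 3.77 ± 0.16 at 24 h, and *Gata6* ranked 8, 4 and 4 from the top of the 15117 genes.

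*Gata4*, a GATA factor that takes over in the formed primitive endoderm and is also used in heart and gut, stood below *Gata6* in every KO library. In KO libraries it was at 25.0, 29.9 and 23.8 CPM at 0 h, at 27.8, 32.9 and 31.6 CPM at 12 h and at 36.6, 33.7 and 36.1 CPM at 24 h. Control libraries had 2.41 and 4.27 CPM at 0 h, 1.48, 1.304 and 2.61 CPM at 12 h and 2.43, 3.09 and 1.25 CPM at 24 h. The control libraries of the 3 times overlapped, and at 0 h replicate 3 had the higher value. The log2 difference was 2.68 ± 0.22 (SE) at 0 h (adjusted p = 9.0e-09), 3.53 ± 0.20 at 12 h and 3.53 ± 0.20 at 24 h. As a ratio of mean CPM the KO level was 7.86 times the control level at 0 h, 17.1 times at 12 h and 15.7 times at 24 h.

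*Sox17*, an HMG-box factor of endoderm that is also found in endothelium, differed least between the genotypes at 0 h. In KO libraries it was at 10.7, 12.3 and 11.0 CPM at 0 h, at 11.5, 12.4 and 12.5 CPM at 12 h and at 13.9, 16.6 and 16.8 CPM at 24 h. In control libraries it was at 2.69 and 4.91 CPM at 0 h, at 1.90, 2.45 and 2.28 CPM at 12 h and at 2.08, 1.503 and 0.954 CPM at 24 h. The KO libraries were highest at 24 h, while in control cells both libraries at 0 h were above all later ones. The log2 difference was 1.40 ± 0.18 (SE) in naive cells (adjusted p = 3.2e-06), 2.03 ± 0.16 at 12 h and 2.76 ± 0.16 at 24 h. Its rank from the top was 238 in naive cells, then 48 and 20 at 12 h and 24 h.

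*Sox7*, a close relative of *Sox17* in the SoxF group that marks primitive endoderm late, had its lowest KO group mean and its highest control group mean at 12 h. In KO libraries it was at 15.3, 13.96 and 13.9 CPM at 0 h, at 12.3, 11.8 and 12.3 CPM at 12 h and at 16.7, 16.1 and 15.6 CPM at 24 h. Control libraries had 0.965 and 0.957 CPM at 0 h, 1.59, 1.79 and 2.28 CPM at 12 h and 0.760, 1.25 and 1.32 CPM at 24 h. Neither of the 2 groups at 12 h overlapped the other times of its genotype. The log2 difference was 2.97 ± 0.13 (SE) at 0 h (adjusted p = 1.7e-12), 2.19 ± 0.11 at 12 h and 3.03 ± 0.11 at 24 h. *Sox7* was at 14 to 56 reads in each control library, and its ratio of mean CPM was 14.9 in naive cells, 6.44 at 12 h and 14.5 at 24 h.

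*Hnf4a*, a nuclear receptor of the visceral endoderm and later of liver, was the lowest member in KO cells. In KO libraries it was at 8.23, 6.90 and 8.32 CPM at 0 h, at 6.49, 7.49 and 6.99 CPM at 12 h and at 8.16, 7.37 and 9.29 CPM at 24 h. In control libraries it was at 1.10 and 1.48 CPM at 0 h, at 1.33, 1.55 and 1.41 CPM at 12 h and at 1.01, 1.13 and 1.17 CPM at 24 h. The group means were, as for *Sox7*, lowest in KO and highest in control cells at 12 h, but within KO cells the values at 0 h overlapped those at 12 h and at 24 h. The log2 difference was 1.95 ± 0.13 (SE) at 0 h (adjusted p = 4.2e-10), 1.72 ± 0.11 at 12 h and 2.13 ± 0.11 at 24 h. By limma, edgeR and DESeq2 alike, *Hnf4a* had no change with time called in either genotype, with log2 changes between -0.21 and 0.21 by limma. The counts do not separate its distal and proximal promoters.

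*Pdgfra*, the receptor for PDGF-A that serves as an early surface marker of primitive endoderm, was the member that rose most from 0 to 24 h in KO cells. In KO libraries it was at 19.8, 20.9 and 21.8 CPM at 0 h, at 33.3, 36.0 and 38.1 CPM at 12 h and at 44.7, 47.7 and 40.5 CPM at 24 h. In control libraries it was at 4.82 and 6.14 CPM at 0 h, at 4.62, 4.97 and 3.69 CPM at 12 h and at 3.90, 3.55 and 3.67 CPM at 24 h. The KO groups stood apart in the order of the times, while control libraries at 24 h lay below those at 0 h and those at 12 h overlapped both. The log2 difference was 1.76 ± 0.11 (SE) at 0 h (adjusted p = 3.1e-10), 2.76 ± 0.10 at 12 h and 3.26 ± 0.10 at 24 h. The ratio of mean CPM was 3.80 at 0 h, 8.07 at 12 h and 11.9 at 24 h.

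**Figure D2:**
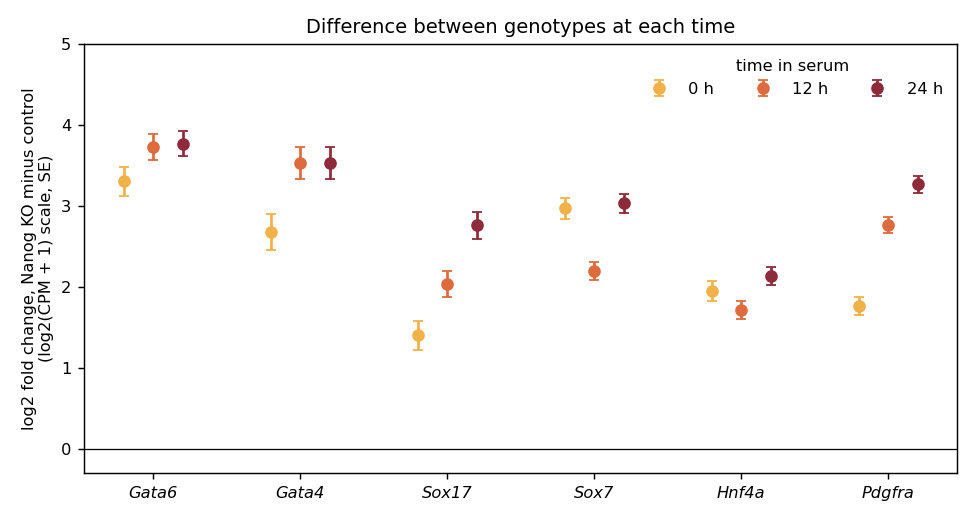
Difference of *Nanog* KO from control for each member on the log2(CPM + 1) scale at 0, 12 and 24 h; points are limma estimates and bars are standard errors. *Gata6* was between 3.30 and 3.77 at all times, *Sox17* and *Pdgfra* widened from 1.40 and 1.76 at 0 h to 2.76 and 3.26 at 24 h, and *Sox7* dipped to 2.19 at 12 h.

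The members were not equally abundant once exon length was taken into account. In KO cells at 24 h, *Gata6* was at 9.30 and *Gata4* at 9.09 CPM per kb of exon, *Sox7* at 4.89, *Pdgfra* at 4.42, *Sox17* at 3.30 and *Hnf4a* at 1.71. The GATA pair therefore led per length, and *Pdgfra*, which has the longest merged exons, fell behind *Sox7*. Merged exons hold the bases of all annotated isoforms. The order of values as close as those of *Sox7* and *Pdgfra* may therefore depend on the isoforms expressed, which was not tested. Summed over the 6 genes, the level was 118 to 122 CPM in KO libraries at 0 h, 135 to 144 at 12 h and 174 to 187 at 24 h. The same sum in control libraries was 14.3 to 21.9 CPM at 0 h, 13.8 to 14.5 at 12 h and 11.5 to 14.4 at 24 h.

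Change with time was tested within each genotype. In KO cells from 0 to 24 h, 3 of 6 members rose (28.8% of all genes tested were called higher and 29.5% lower). *Pdgfra* rose by 1.05 ± 0.10 (log2, SE, adjusted p = 7.2e-08), *Gata6* by 0.58 ± 0.16 (adjusted p = 0.0044) and *Sox17* by 0.44 ± 0.16 (adjusted p = 0.027). *Gata4* was at 0.43 ± 0.20 (adjusted p = 0.072), *Sox7* at 0.16 and *Hnf4a* at 0.07. *Pdgfra* alone was called from 0 to 12 h, at 0.75 ± 0.10 (25.7% of all genes higher), and *Gata6*, *Sox7* and *Pdgfra* from 12 to 24 h, at 0.47, 0.38 and 0.30 (13.1% of all genes higher). The call on *Sox17* was lost without KO replicate 1 or 3 at 0 h or replicate 2 or 3 at 24 h, at 0.39 to 0.42. The 3 calls from 12 to 24 h fell to 1 without KO replicate 1 at 12 h or replicate 2 at 24 h, and by limma to 0 without KO replicate 2 at 12 h or replicate 1 at 24 h (3 and 4 members at an unadjusted p under 0.05), while edgeR and DESeq2 each called 3. That of *Gata6* was lost without KO replicate 3 at 12 h as well (0.46).

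In control cells from 0 to 24 h, 2 of 6 members were called lower (28.7% of all genes tested were called lower and 26.1% higher). *Sox17* fell by 0.92 on the log2 scale (SE 0.18, adjusted p = 3.3e-04) and *Pdgfra* fell by 0.46 (SE 0.11, adjusted p = 0.0023). Without control replicate 3 at 0 h the change of *Pdgfra* was -0.31 and not called, and that of *Sox17* was still called, while *Gata4* was called lower without control replicate 2 at 0 h (-0.74) or at 24 h (-0.61). From 0 to 12 h, *Sox7* rose by 0.55 ± 0.13 (adjusted p = 0.0017, 22.6% of all genes higher), and *Gata4* and *Sox17* fell by 0.63 and 0.54 (adjusted p = 0.026 and 0.020, 24.5% of all genes lower). The last pair rested on control replicate 3 at 0 h, the higher of the 2 libraries for both genes, and without it they were at -0.32 and -0.20 and not called. Without control replicate 1 at 12 h they were at -0.56 and -0.47 and not called, and *Gata4* was at -0.50 and not called without replicate 2 at 12 h. Without control replicate 2 at 0 h, 5 members were called. From 12 to 24 h, *Sox7* fell by 0.46 (adjusted p = 0.0054, 16.8% of all genes lower) and *Gata6* rose by 0.43 (adjusted p = 0.047, 15.1% of all genes higher), the latter a call that edgeR and DESeq2 did not make and that was lost on leaving out most single libraries, at 0.22 to 0.49.

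**Figure D3:**
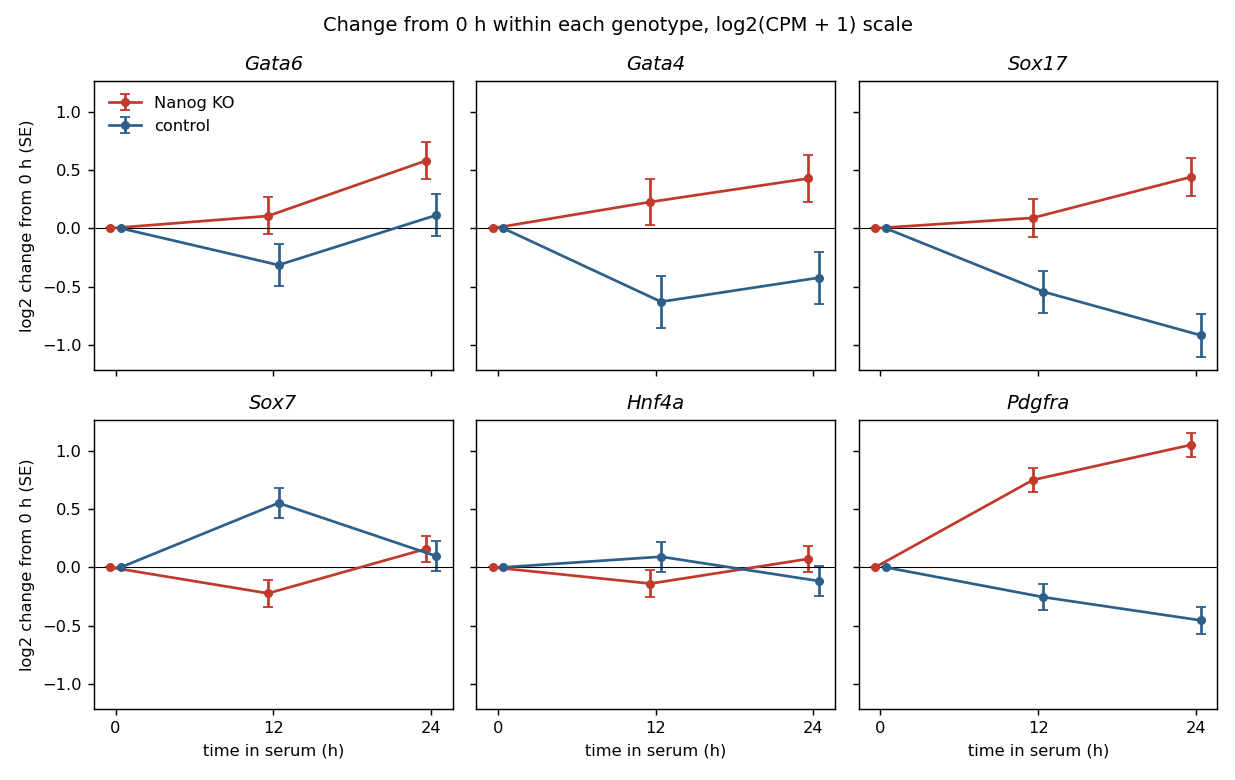
Change of each member from 0 h to 12 h and 24 h of serum (h) on the log2(CPM + 1) scale, in KO and control cells; points are limma estimates set at 0 for 0 h and bars are standard errors. *Pdgfra* rose by 1.05 in KO cells over 24 h and fell by 0.46 in control cells, and at 12 h *Sox7* was at -0.22 (not called) in KO and at 0.55 in control cells.

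Whether the 2 genotypes changed differently was tested directly as an interaction, which is the change in KO cells minus the change in control cells. From 0 to 24 h, 3 of 6 members had a positive interaction called (15.5% of all genes), which can come from a rise in KO cells, a fall in control cells or both. The interaction was 1.504 ± 0.15 for *Pdgfra* (log2, SE, adjusted p = 8.6e-07), 1.36 ± 0.24 for *Sox17* (adjusted p = 3.8e-04) and 0.85 ± 0.30 for *Gata4* (adjusted p = 0.037). *Sox17* moved further in control cells (-0.92) than in KO cells (0.44), and *Gata4* moved by -0.42 and 0.43, neither of them called. The value for *Gata4* was not called without KO replicate 1 or 3 at 0 h or at 24 h (0.79 to 0.84), control replicate 3 at 0 h (0.54) or control replicate 3 at 24 h (0.60). From 0 to 12 h the interaction was 1.005 ± 0.15 for *Pdgfra* (adjusted p = 1.5e-04, 9.94% of all genes higher) and -0.77 ± 0.17 for *Sox7* (adjusted p = 0.0041, 9.6% of all genes lower). From 12 to 24 h *Sox7* was at 0.84 ± 0.16 (adjusted p = 0.0058, 2.35% of all genes higher and 1.96% lower). edgeR and DESeq2 each called 4 members from 0 to 12 h, adding *Gata4* and *Sox17*, and 2 from 12 to 24 h, adding *Pdgfra*. Without control replicate 2 at 0 h, limma called 5 members from 0 to 12 h and 3 from 12 to 24 h. From 12 to 24 h it also called 3 without control replicate 3 at 0 h, and 2 without KO replicate 3 at 24 h, control replicate 3 at 12 h or control replicate 1 at 24 h. *Gata6* and *Hnf4a* had no interaction called by limma over any of the 3 intervals with all libraries in the fit. For *Gata6* from 0 to 24 h, DESeq2 made a call at 0.56, and without control replicate 2 at 0 h limma made one at 0.78.

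*Gata4* and *Sox7* lie 671980 bases apart on chromosome 14, and both differed between the lines, so the genes between them were examined. The annotation holds 13 genes there, 6 of them protein coding, and 5 are in the table. At 0 h *Pinx1* (a telomerase inhibitor) and *Tdh* (threonine dehydrogenase) were lower in KO cells, at -0.69 and -0.67, *Fam167a* (0.39) and *Mtmr9* (0.20) were higher, and *Xkr6* was not called. None of the 5 came near the members in size. The median difference over genes of chromosomes 1, 2, 5, 14 and 18, which carry the members, was between -0.05 and -0.01 at 0 h, beside 0.41 on chromosome 15, which carries none of the 6 genes.

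The genes that act with or below these specifiers were read from lists. In the endocytic machinery of the visceral endoderm surface, 4 of 4 genes were higher in KO cells at each time, with a median log2 difference of 2.00 at 0 h, 2.77 at 12 h and 3.91 at 24 h. *Cubn* (cubilin, a scavenger receptor) went from 11.0 ± 1.10 CPM in KO cells at 0 h (SD, n = 3) to 235 ± 32.1 at 24 h (n = 3), against 0.421 ± 0.0872 (n = 2) and 3.13 ± 1.62 (n = 3) in control cells. *Dab2*, an endocytic adaptor, was higher by 2.43 ± 0.09 at 0 h, and *Amn* (amnionless, the partner of cubilin) and *Lrp2* (megalin) by 1.57 ± 0.19 and 0.67 ± 0.08. *Dab2* lies on chromosome 15, whose median is given above. All 4 also had a positive interaction from 0 to 24 h, the largest being 2.83 ± 0.34 for *Cubn*, 2.17 ± 0.25 for *Amn* and 1.66 ± 0.11 for *Dab2*. The control level of *Cubn* at 0 h (0.421 CPM) lay below the 1 CPM added before logs were taken. That constant compresses the rise of *Cubn* in control cells, so the size and rank of its interaction depend on it.

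Basement membrane genes, whose products parietal endoderm lays down in Reichert's membrane, came next. Of 12 genes, 9 were higher and 2 lower in KO cells at 0 h, and 11 were higher and 1 lower at 24 h, with medians of 0.69 and 0.96. Their mean summed level was 4137 CPM at 0 h and 4134 CPM at 24 h in KO cells, and 2707 and 1993 CPM in control cells. *Lama1* (laminin alpha chain) was higher by 2.39 ± 0.10 at 0 h, *Col4a1* and *Col4a2* (collagen IV) by 1.68 ± 0.07 and 1.28 ± 0.09, *P4ha2* (a collagen prolyl hydroxylase) by 1.03 ± 0.07 and *Sparc* (a collagen-binding matrix protein) by 0.71 ± 0.06. *Serpinh1*, the collagen chaperone, was lower at 0 h (-0.62) and higher at 24 h (0.40), with an interaction of 1.02 ± 0.09. From 0 to 24 h it changed by -0.88 in control cells and by 0.14 in KO cells.

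Among 9 other endoderm transcription factors tested of 10 counted, 3 were higher and 2 lower in KO cells at 0 h, and 4 were higher and 1 lower at 24 h, with medians of -0.03 and 0.02. *Eomes* (a T-box factor), *Foxq1* (a forkhead factor) and *Sall4* (a zinc finger factor shared with ES cells) were higher by 0.77 ± 0.14, 0.73 ± 0.16 and 0.21 ± 0.06 at 0 h, while *Gsc* and *Foxa1*, a homeobox and a forkhead factor of later endoderm and mesendoderm, were lower (-1.12 and -1.10). *Foxa2*, a forkhead factor of definitive and visceral endoderm, was not called at 0 h (-0.30, adjusted p = 0.24) and was higher by 1.78 ± 0.18 at 24 h, with an interaction of 2.08 ± 0.28. The interaction was 1.09 ± 0.22 for *Foxq1* and 1.03 ± 0.25 for *Gsc*. From 0 to 24 h *Foxa2* changed by -1.44 in control and 0.64 in KO cells, and *Foxq1* by -0.52 and 0.56. *Gsc* changed by -0.84 in control cells and by 0.19, not called, in KO cells.

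**Figure D4:**
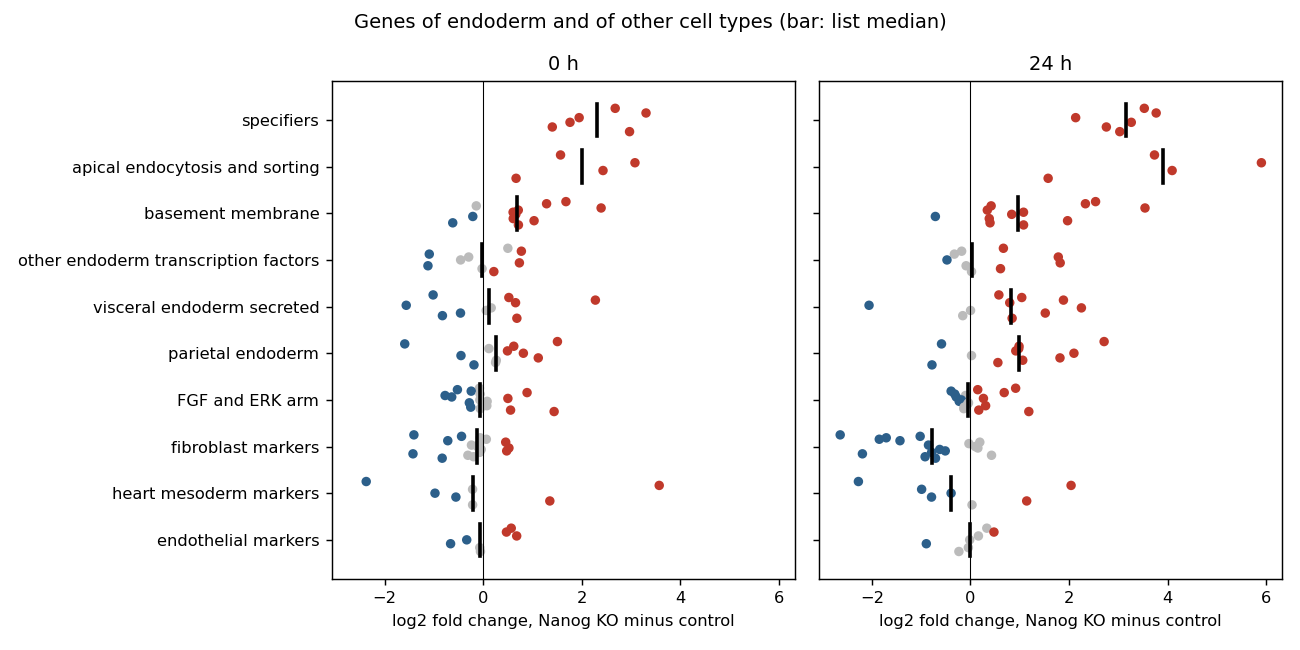
Difference of *Nanog* KO from control (log2) for every tested gene of the lists shown, at 0 h and 24 h; points are genes, coloured by call (higher, lower or grey for neither), and bars are list medians. The lists of family relatives, PDGF ligands and ES cell markers are not drawn. The 6 members and the 4 endocytic genes stood to the right at both times, with medians at 0 h of 2.31 and 2.00, while the 17 genes of the FGF and ERK list had a median of -0.07.

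Genes of the more mature descendants were split. Of 14 visceral endoderm genes for secreted or surface proteins, 10 were tested, of which 4 were higher and 4 lower in KO cells at 0 h and 7 were higher and 1 lower at 24 h. *Apoe* (apolipoprotein E) was higher by 2.28 ± 0.11 and *Trf* (transferrin) by 0.68 ± 0.24 at 0 h, whereas *Cer1*, an anterior visceral endoderm antagonist of Nodal and Wnt, *Amot* and *Rbp4* (retinol binding protein) were lower (-1.56, -1.02 and -0.83). *Ihh* (Indian hedgehog) was not called at 0 h and was higher by 2.25 ± 0.15 at 24 h, and *Podxl* turned from -0.46 to 1.52. From 0 to 24 h *Podxl* changed by -1.37 in control and 0.61 in KO cells, and *Ihh* by -0.44 and 1.66. Of 11 parietal endoderm genes, 5 were higher and 3 lower at 0 h, and 8 were higher and 2 lower at 24 h. Their mean summed level fell from 2930 CPM at 0 h to 1988 CPM at 24 h in KO cells, and from 2180 to 954 CPM in control cells. Not every gene followed the sum, as *Lgmn* and *Ctsl* rose in KO cells, by 1.17 and 0.48. *Ctsl* (cathepsin L), *Pth1r* (the parathyroid hormone receptor), *Lgmn* (legumain) and *Krt18* (a keratin) were higher by 1.505, 1.12, 0.81 and 0.62 at 0 h, and *Fst* (follistatin) was lower (-1.59). *Afp*, *Ttr*, *Apoa1* and *Apoc2* were not analysed here.

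Of the 17 genes of the FGF and ERK arm, 4 were higher and 6 lower in KO cells at 0 h, and 7 were higher and 5 lower at 24 h, with medians of -0.07 and -0.06. *Fgf4*, the ligand made by epiblast cells, was lower at 0 h (-0.78 ± 0.09), as was its receptor *Fgfr1* (-0.64 ± 0.07). The feedback inhibitors *Spry4* and *Spry2* and the target *Etv4* were higher by 1.44 ± 0.07, 0.55 ± 0.05 and 0.89 ± 0.08, while the ERK phosphatase *Dusp6* was lower (-0.53 ± 0.05). *Dusp4*, another such phosphatase, was not called at 0 h and was higher by 0.92 ± 0.07 at 24 h.

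Near relatives of the members were counted together with the GATA cofactor genes *Zfpm1* and *Zfpm2*. Of 7 tested genes of 10 listed, 1 was higher and 2 lower in KO cells at 0 h, and 1 was higher and 3 lower at 24 h. Over all genes tested the shares were 25.4% higher and 26.9% lower at 0 h, and 23.4% and 24.5% at 24 h. *Kit*, a receptor tyrosine kinase of the same family as *Pdgfra*, was lower at 0 h (-2.65 ± 0.10), at 24.6 ± 1.96 CPM in KO cells (SD, n = 3) against 159.7 ± 4.76 in control cells (n = 2). *Pdgfrb*, the other PDGF receptor, was lower (-0.43 ± 0.11). *Gata3* was higher by 1.17 ± 0.13 at 0 h and not called at 24 h (0.10), and *Gata2* was not called at 0 h (0.10) and higher by 0.72 ± 0.10 at 24 h. From 0 to 24 h *Gata2* was called lower in both genotypes, at -0.58 in KO and -1.21 in control cells. Of the 3 PDGF ligand genes tested, *Pdgfb* was lower at 0 h (-1.03 ± 0.16), and *Pdgfa*, whose product binds PDGFRA, was at -0.01 and not called.

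Other cells express some of the members, so their markers are given beside them. Feeders were present, and *Pdgfra* is also a fibroblast gene. The summed level of 17 fibroblast markers (of 18 listed, *Fap* not analysed here) was 1315 to 1456 CPM in KO libraries at 0 h, 706 to 883 at 12 h and 314 to 407 at 24 h. In control libraries it was 2025 to 2172 CPM at 0 h, 1501 to 1613 at 12 h and 947 to 1076 at 24 h. The fibroblast sum was lower in KO cells at each time. From 0 to 24 h, 16 of the 17 markers were called lower in KO cells (29.5% of all genes tested were called lower). *Pdgfra* was called higher over that interval, and the part of feeders in its level was not tested. At 0 h 3 fibroblast markers were higher in KO cells and 5 lower, and the rest were not called. *Tagln* was at -1.43, *Acta2* at -1.41 and *Lum*, called higher, at 0.52. At 24 h none was higher and 12 were lower.

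**Figure D5:**
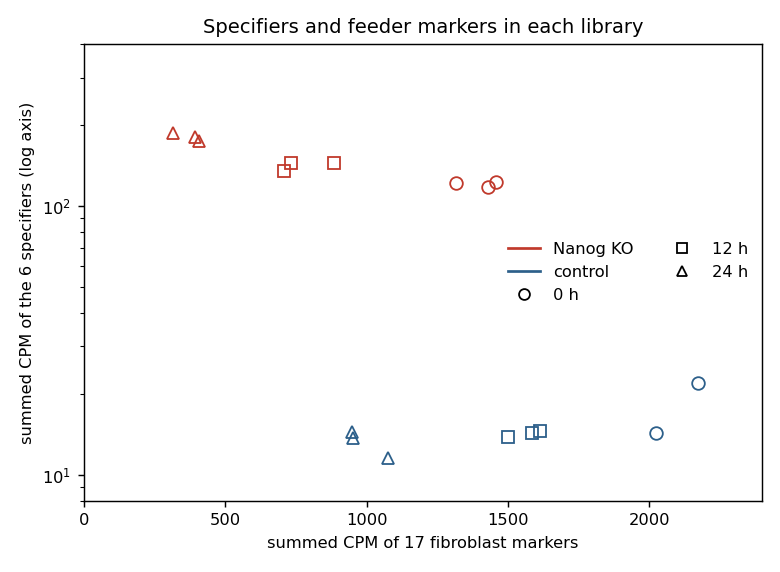
Summed level of the 6 members (CPM, log axis) against the summed level of 17 fibroblast markers (CPM, linear axis) in each of the 17 libraries; points are libraries, coloured by genotype and shaped by time. KO libraries lie at member sums of 118 to 187 and fibroblast sums of 314 to 1456 CPM, and control libraries at 11.5 to 21.9 and 947 to 2172 CPM.

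Heart mesoderm also uses *Gata4* and *Gata6*, and endothelium uses *Sox7* and *Sox17*. Of 7 heart markers tested of 12 listed, 2 were higher and 3 lower in KO cells at 0 h. *Hand1*, a bHLH factor of extraembryonic mesoderm, trophoblast and heart, was higher by 3.57 ± 0.11. *Hand1* was at 29.2 ± 1.47 CPM in KO (SD, n = 3) against 1.55 ± 0.238 in control cells (n = 2). The other marker called higher was *Tbx20*, by 1.35 ± 0.16. *Actc1* and *Myh6*, which encode cardiac actin and myosin, were lower (-2.38 and -0.98). The sum over the 8 heart markers in the table was 48.2 to 52.6 CPM in KO and 71.4 to 72.8 in control libraries at 0 h, and 38.7 to 41.1 against 32.9 to 36.8 at 24 h. Of 7 endothelial markers tested of 10 listed, 3 were higher and 2 lower at 0 h, with *Esam* at 0.68 and *Kdr* at -0.66, and the sum over the 8 in the table was 58.2 to 60.4 CPM in KO and 55.8 to 58.1 in control libraries. The part of these cell types in the members' levels was not tested. Of 10 ES cell markers, 4 were higher and 4 lower in KO cells at 0 h, the lower ones including *Nanog* itself (-3.61), the gene deleted in this line. *Pou5f1* was at 0.54, *Tdgf1* at 1.42, *Esrrb* at -0.70 and *Klf4* at -0.71.

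The members were then set beside the genes whose levels followed them most closely over the 17 libraries, as a description. Pearson's r here is between log2(CPM + 1) values and mostly reflects the gap between the genotypes that all these libraries share. Among the genes closest to *Pdgfra* were *Lama1* (r = 0.994), *Col4a2* (0.992) and *Col4a1* (0.991), and over the 9 KO libraries alone these were at 0.987, 0.9498 and 0.942. *Gata6* was closest to *Lamp1* (0.985), *Nostrin* (0.983), *Srgn* and *Cebpd* (both 0.982), and *Gata4* to *Fam134b* (0.986), *Lama1* (0.983), *Srgn* (0.979) and *Col4a1* (0.978). *Sox17* was closest to *Kdelr3* (0.981), *Fam134b*, *Lamb1* (both 0.980) and *Col4a1* (0.979). *Fam134b* and *Kdelr3* lie on chromosome 15, where the median difference at 0 h was 0.41. *Sox7* was closest to *Fam21* (0.990), *Plet1* (0.988), *Spata31d1b* (0.986) and *Fam189a2* (0.985), and *Hnf4a* to *Lamp1* (0.989), *Fam189a2*, *Plet1* (both 0.988) and *Atp6v0c* (0.987). Over the KO libraries alone, r for these neighbours of the other 5 members ranged from -0.443 for *Sox7* and *Plet1* to 0.894 for *Gata4* and *Col4a1*, and it was 0.147 for *Gata6* and *Lamp1*. *Lamp1*, a lysosomal membrane protein gene, was at 606 CPM in KO and 307 CPM in control cells at 0 h, a far smaller ratio than that of *Gata6*. Between members r was 0.939 to 0.990 over all libraries, and within the KO libraries it ranged from 0.0184 for *Hnf4a* and *Pdgfra* to 0.853 for *Gata6* and *Sox17* (n = 9).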

How the data were processed

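RNA-seq libraries of *Nanog* KO (BT12) and parental control (E14Tg2a) mouse ES cells were sequenced as single reads, 17 of which were analysed. The authors trimmed reads with cutadapt 1.3, quantified genes on GRCm38 with RSEM (1.2.3 in the submitters' processing notes) and scaled them by TMM in edgeR. The methods also name a ComBat correction. What the authors deposited is a signal, CPM on TMM-scaled library sizes, from which reads were recovered: 100% of values were whole reads to a tolerance of 0.001, as they would not be after ComBat. Columns of other samples numbered 0. No use of strand in counting is stated. Depth was 8775372 to 33766086 reads per library, and intervals from it would cover counting error only.

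Of 15470 rows, 127 had no symbol and 15353 matched GENCODE M21. Genes reaching 1 CPM in 3 or more libraries (15117, all members among them) were tested with limma 3.58.1 (R 4.3.3) on log2(CPM + 1), with a mean-variance trend, 1 coefficient per genotype and time and 1 shared spread. Two-sided p-values were adjusted by Benjamini-Hochberg over all genes and called at 0.05. Fold changes on this scale understate the change of low genes, and an interaction can be overstated or understated for genes low in 1 genotype. Comparisons share libraries.

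The members, lists and tests were chosen with earlier results of these data known, so no p is adjusted over a list alone. Named genes are the members, up to 5 called genes of each list with the largest difference at 0 h and up to 3 with the largest interaction from 0 to 24 h, the 4 closest genes per member by Pearson's r (mean of at least 5 CPM) and up to 3 genes between *Gata4* and *Sox7*. Others are named as examples, chosen after their values were seen. A few further genes are not reported here, and counts over their list omit them. Sequences are from RefSeq (GRCm38.p6).

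Alternatives were edgeR 4.0.16 and DESeq2 1.42.0 on the recovered reads, other filters, scalings and added constants, the compared groups only, no trend, a replicate block and leaving out each library. edgeR called 8057, 7375 and 7264 genes between genotypes at 0, 12 and 24 h. Reads were simulated for 15117 genes in the comparison at 0 h, with 100 genes changed at each size. The test gave back 87% of genes changed by 1 (log2) and 98% of those changed by 2, with 10 false calls. In the data limma called 7911 genes in that comparison, so these rates may not hold there.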

Additional observations from a re-analysis of the deposited data

Results flagged for a closer look

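Groups of 2 or 3 libraries are too small for a search for single outlying libraries. In 4 members the change with time differed between *Nanog* KO and control cells by limma's interaction test (change in KO minus change in control, log2). From 0 to 24 h the interaction was 1.504 for *Pdgfra*, 1.36 for *Sox17* and 0.85 for *Gata4* (15.5% of all genes tested were called higher). From 0 to 12 h it was 1.005 for *Pdgfra* (9.94% of all genes higher) and -0.77 for *Sox7* (9.6% lower). From 12 to 24 h *Sox7* was at 0.84 (2.35% of all genes higher). The intervals share libraries, so these are not independent of each other. *Sox7* is the one member with an interaction called by limma in both 12 h steps, with opposite signs. The estimates of *Hnf4a* (-0.23 and 0.42) and *Gata4* (0.86 and -0.0046) also had opposite signs but were not called by limma in either step. The cause of these differences was not tested.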

How the results depend on the processing

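The 6 members were higher in *Nanog* KO cells at 0, 12 and 24 h under every alternative that tested them (483 of 483 values), with log2 differences between 1.061 (*Sox17* at 0 h without control replicate 2) and 4.219 (*Gata4* at 12 h by edgeR). A minimum mean of 5 CPM leaves out *Hnf4a*. Over all results, 1830 of 1932 values kept their call, 58 lost it, 44 gained one and 0 reversed. The rise of *Pdgfra* in KO cells from 0 to 12 h and 0 to 24 h, the interactions of *Pdgfra* from 0 to 12 h and 0 to 24 h, of *Sox17* from 0 to 24 h and of *Sox7* over both 12 h steps, and the fall of *Sox17* in control cells over 24 h were called throughout.

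Counts of members called with time moved more. For control cells from 12 to 24 h (2 called), edgeR, DESeq2, total-count CPM, limma without the trend and the replicate block each gave 1, and a fit of the compared groups only gave 0 by limma (2 at an unadjusted p under 0.05). The interaction from 0 to 12 h (2 called) gave 4 with edgeR, DESeq2 or the compared groups only, and that from 12 to 24 h (1 called) gave 2 with edgeR, DESeq2, a mean of at least 5 CPM or median-ratio scaling. With the compared groups only, KO cells from 0 to 12 h gave 3 in place of 1, and control cells from 0 to 12 h gave 1 (higher) in place of 3 (1 higher and 2 lower), so the majority turned from lower to higher. With 0.1 CPM added in place of 1, KO cells from 12 to 24 h gave 0 in place of 3 by limma (3 at an unadjusted p under 0.05). The cause was not tested.

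Leaving out each library in turn gave 6 members at each time between genotypes. It gave 1 to 1, 0 to 3 and 2 to 4 in KO cells from 0 to 12, 12 to 24 and 0 to 24 h, 1 to 5, 1 to 3 and 1 to 3 in control cells, and 2 to 5, 1 to 3 and 2 to 4 for the interactions. Without control replicate 3 at 0 h, control cells from 0 to 12 h had 1 call, which was higher. A left-out control library at 0 h leaves 1, assumed to vary like the other groups.

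Same-numbered libraries did not deviate together (r of -0.191 to 0.104 over 40 pairs, 2 of them over 0.1), so no pairing by number was seen. Groups of 2 or 3 libraries are too small to exclude such a pairing. With the replicate as a block, *Gata6* in control cells from 12 to 24 h (0.43), the *Gata4* interaction from 0 to 24 h (0.83) and *Pdgfra* in KO cells from 12 to 24 h (0.30) were no longer called. Control levels of the members rest on 13 to 163 reads per library, which limits the precision of changes within control cells.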
